A study of Caenorhabditis elegans with 6 samples.

Results

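The 8 genes described here, let-653, noah-1, noah-2, fbn-1, dpy-6, sym-1, let-4 and egg-6, encode proteins of the transient apical extracellular matrix of Caenorhabditis elegans. They were selected by name from genes of that matrix, with their differences between genotypes in these same arrays already known. The difference between genotypes is therefore given for them as a description, with no test of its own, and supports nothing further. Together they have 14 probe sets out of 22548 that are not array controls, and 8 of 17118 genes that the platform annotation names singly. The arrays hold RNA of whole larvae at the L4 stage, 3 of wild-type and 3 of zip-3(gk3164), an allele of the bZIP transcription factor gene zip-3. Both genotypes were fed bacteria of the control RNAi culture and grown in liquid after synchronization by bleaching, so a control RNAi diet is shared by all 6 arrays. The labels name biological replicates without saying whether they came from separate cultures, so the spread between arrays may leave out variation between cultures. They do not say which part of zip-3 the allele removes.

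Before each new cuticle is built, epithelial cells of the worm secrete a short-lived matrix, the precuticle, over their outer or luminal surface. This matrix shapes the skin, the vulval lumen and the narrow tubes of the excretory system, and it is removed or replaced as the collagen cuticle matures. Its components include zona pellucida domain proteins, which polymerize through that domain, proteins with extracellular leucine-rich repeats, lipocalins, and mucin-like and fibrillin-like proteins. Many of their transcripts rise and fall once in every moulting cycle.

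Of the 8 genes, 7 had a higher signal on all 3 zip-3(gk3164) arrays than on any wild-type array, and egg-6 did not. The same separation was shown by 14.1% of all probe sets tested, and the genes were selected on this contrast. On the log2 scale the 7 were higher by 1.95 for let-4, 1.97 for noah-1, 2.26 for noah-2, 2.55 for let-653, 2.76 for sym-1, 3.47 for dpy-6 and 3.52 for fbn-1. egg-6 differed by -0.21, within the spread of its arrays. The median over the 8 genes was 2.41, where the median over all 10369 genes tested was 0.03. These values take 1 probe set per gene, the one with the highest mean log2 signal over the 6 arrays. In whole larvae, a change in the number of cells that make a transcript and a change in transcript per cell cannot be told apart.

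Values are linear signals from the MAS5 algorithm, scaled to a common mean on every array, and a signal is comparable between arrays for 1 probe set but not between probe sets. All 14 probe sets passed the filter on low signal, a mean log2 value at or above that of a signal of 68.7. For 5 of them the wild-type mean was below 68.7, so those 5 passed through their mutant arrays and could not have passed with equal levels. They are let-653, which has no other probe set, and the dimmer probe sets of fbn-1, dpy-6, sym-1 and let-4.

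Zona pellucida genes were among the higher transcripts. let-653 encodes a zona pellucida protein that keeps the excretory duct lumen open and helps to shape the vulval lumen. Its probe set, 193058_at, read 61.0, 58.0 and 66.0 on the wild-type arrays and 431, 439 and 248 on the mutant arrays. The lowest mutant array was 3.76 times the highest wild-type array, and mutant array 3 stood apart from the other two. The group means of let-653 were 61.7 ± 4.0 and 373 ± 108 (SD, n = 3 each), a log2 difference of 2.55 ± 0.28 (moderated SE). All 3 wild-type signals of let-653 lay under the filter signal, so its wild-type level is poorly measured.

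noah-1 and noah-2 encode a pair of related zona pellucida proteins required for embryonic elongation and for moulting. The brighter noah-1 probe set, 174240_at, read 1082, 2089 and 2640 in wild-type and 6807, 8017 and 6556 in zip-3(gk3164). The lowest mutant signal of noah-1 was 2.48 times the highest wild-type signal, and wild-type array 1 read well under the other wild-type arrays. The means were 1937 ± 790 (SD, n = 3) and 7127 ± 781, a log2 difference of 1.97 ± 0.32. The dimmer noah-1 probe set, 183775_at, read 495, 823 and 855 against 3705, 3401 and 1839, a log2 difference of 2.02 ± 0.33. Both noah-1 probe sets thus gave nearly the same difference, and they correlated at r = 0.96 across the 6 arrays. noah-2, probe set 181136_s_at, read 414, 679 and 648 in wild-type and 3177, 3495 and 1815 in the mutant. Its groups did not overlap, with the lowest mutant array at 2.67 times the highest wild-type array, and the log2 difference was 2.26 ± 0.31. The suffix of the noah-2 probe set marks sequence shared with other transcripts, so they can add to its signal.

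fbn-1 encodes a large fibrillin-like protein that helps the epidermis withstand the pull of the pharynx during morphogenesis. Its brighter probe set, 174252_at, read 43.6, 128.8 and 95.2 in wild-type and 1246, 1103 and 582 in the mutant. Every mutant array exceeded every wild-type array, the lowest by 4.52 times, although the wild-type arrays themselves spanned a ratio of 2.96. The means of fbn-1 were 89.2 ± 42.9 and 977 ± 349 (SD, n = 3), a log2 difference of 3.52 ± 0.46, the highest of the 8 genes by their brightest probe sets. The second fbn-1 probe set, 181745_at, read 41.4, 63.2 and 56.3 against 299, 348 and 149, a smaller log2 difference of 2.24 ± 0.37. Its direction and the order of its genotypes matched the brighter probe set, with r = 0.98 across the 6 arrays.

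dpy-6 encodes a mucin-like protein whose loss makes worms short and fat. Probe set 173635_at read 86.1, 174.5 and 128.9 in wild-type and 1515, 1824 and 959 in the mutant. The lowest mutant array stood at 5.50 times the highest wild-type array, the widest gap between genotypes among the brightest probe sets of the 8 genes. Its log2 difference was 3.47 ± 0.34. The other dpy-6 probe set, 181248_s_at, read 5.16, 66.4 and 5.6 in wild-type and 681, 1196 and 366 in the mutant. The groups were again separate, and 2 of the wild-type signals were near the bottom of the scale. The fitted log2 difference of 5.75 ± 0.98 for that probe set rests on those dim values and is no measure of the size of the change.

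sym-1, let-4 and egg-6 encode proteins with extracellular leucine-rich repeats. SYM-1 is secreted and contributes to the attachment of body muscle to the epidermis, while LET-4 and EGG-6 span the membrane and maintain epithelial junctions and the excretory lumen. In the gene table of assembly WBcel235, let-4 and sym-1 are next to each other, with lron-1, a gene of the same repeat class, on the other side of let-4. sym-1, probe set 193344_at, read 275, 489.9 and 434 in wild-type and 2985, 3245 and 1864 in the mutant, and the groups did not overlap. The means of sym-1 were 399.9 ± 111.5 and 2698 ± 734 (SD, n = 3), a log2 difference of 2.76 ± 0.30. The second sym-1 probe set, 173273_at, did not share this separation. It read 67.7, 45.0 and 52.9 in wild-type and 49.9, 178.2 and 104.4 in zip-3(gk3164), a log2 difference of 0.84 ± 0.47. Mutant array 1 thus lay within the wild-type range for 173273_at, and the probe sets of sym-1 correlated at only r = 0.55.

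let-4, probe set 193319_at, read 123.1, 141.4 and 133.6 in wild-type and 740.3, 572 and 318 in the mutant, with no overlap. Its wild-type arrays were close together, at 132.7 ± 9.2 (SD, n = 3), and its mutant arrays wide apart, at 544 ± 212, for a log2 difference of 1.95 ± 0.32. The dimmer probe set, 173271_s_at, read 29.4, 99.4 and 47.9 against 539.8, 456 and 382, a log2 difference of 3.13 ± 0.44. Both let-4 probe sets separated the genotypes, and the dimmer one gave the wider difference, from a wild-type mean of 58.9 that lay below the filter signal.

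egg-6, named for a role in the eggshell and also needed in the excretory duct and pore, was the exception. Probe set 173039_s_at read 699, 879.5 and 488 in wild-type and 711, 325 and 838 in the mutant. The genotypes overlapped fully except for mutant array 2, which was the lowest of the 6, and the log2 difference was -0.21 ± 0.39. The second egg-6 probe set, 194069_s_at, read 532, 447 and 380.1 against 419, 405 and 471, a difference of -0.06 ± 0.20 with every mutant array inside the wild-type range. Both egg-6 probe sets carry suffixes for shared sequence.

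**Figure D1:**
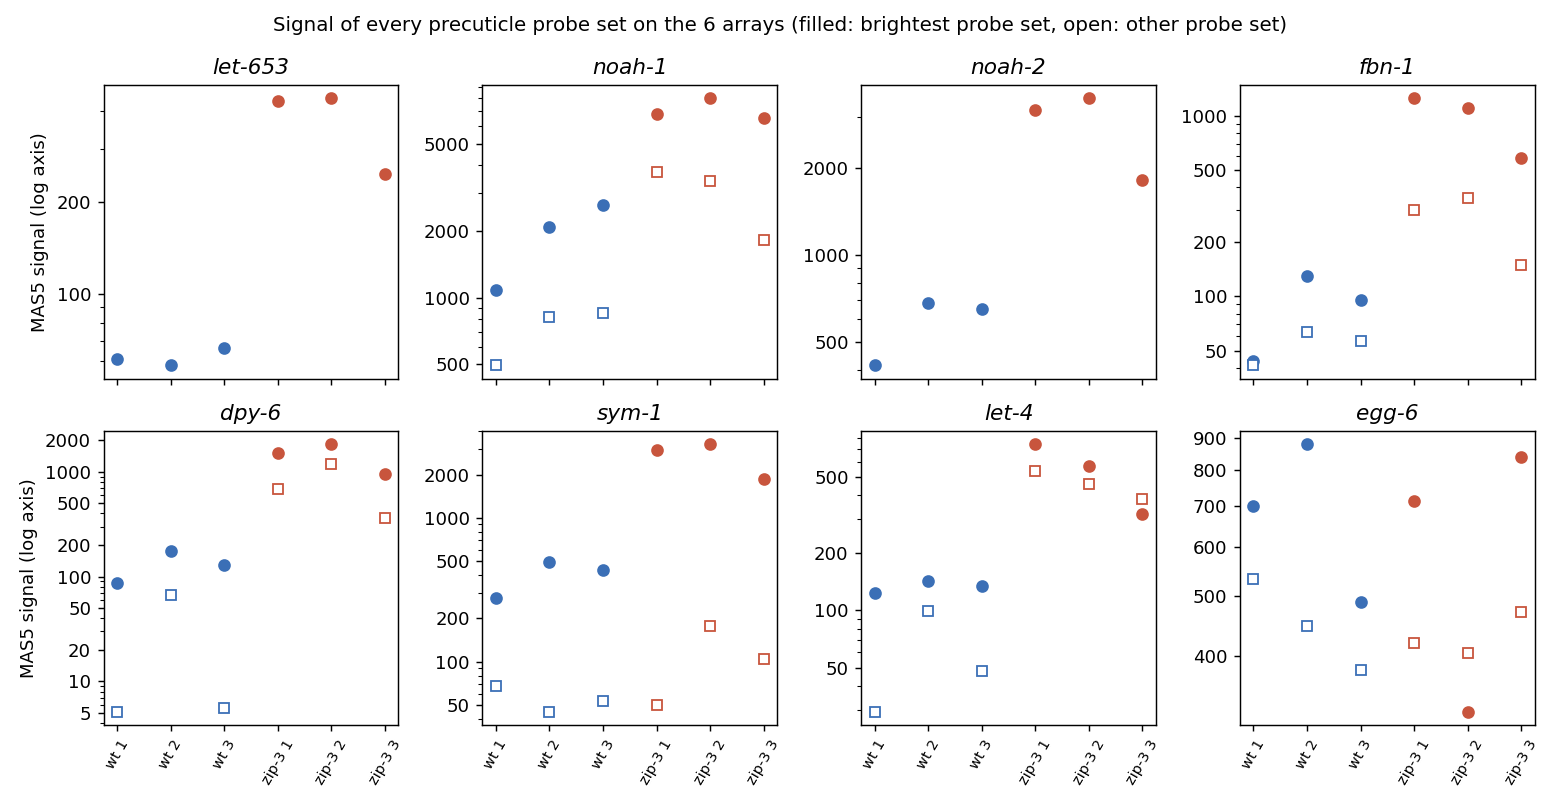
MAS5 signal (vertical log axis, its range set for each gene) on the 3 wild-type arrays (blue) and the 3 zip-3(gk3164) arrays (red), with filled circles for a gene's brightest probe set and open squares for its other probe set. Genotypes are separate in every panel but egg-6, except for the dimmer sym-1 probe set, which overlaps.

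Across all 13529 probe sets that passed the filter, limma with Benjamini-Hochberg adjustment called 18 at an adjusted p under 0.05, or 0.133%, and 16 of these were higher in the mutant, or 0.118%. The brightest probe sets of dpy-6, sym-1 and let-653 were among the 16, and none of the other 11 precuticle probe sets was called. Of the 14, 11 had all mutant arrays above all wild-type arrays, a separation shown by 14.1% of the probe sets tested. Because the genes were selected on this contrast, nothing is read from either count. Every one of the 3 calls depended on the array set: leaving out any array other than mutant array 3 left 0 calls among the 14, and 0 among all probe sets. Without mutant array 3, 11 of the 14 were called, on a background of 5.96% of probe sets called higher, and the 11 belonged to all of the 7 genes other than egg-6.

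**Figure D2:**
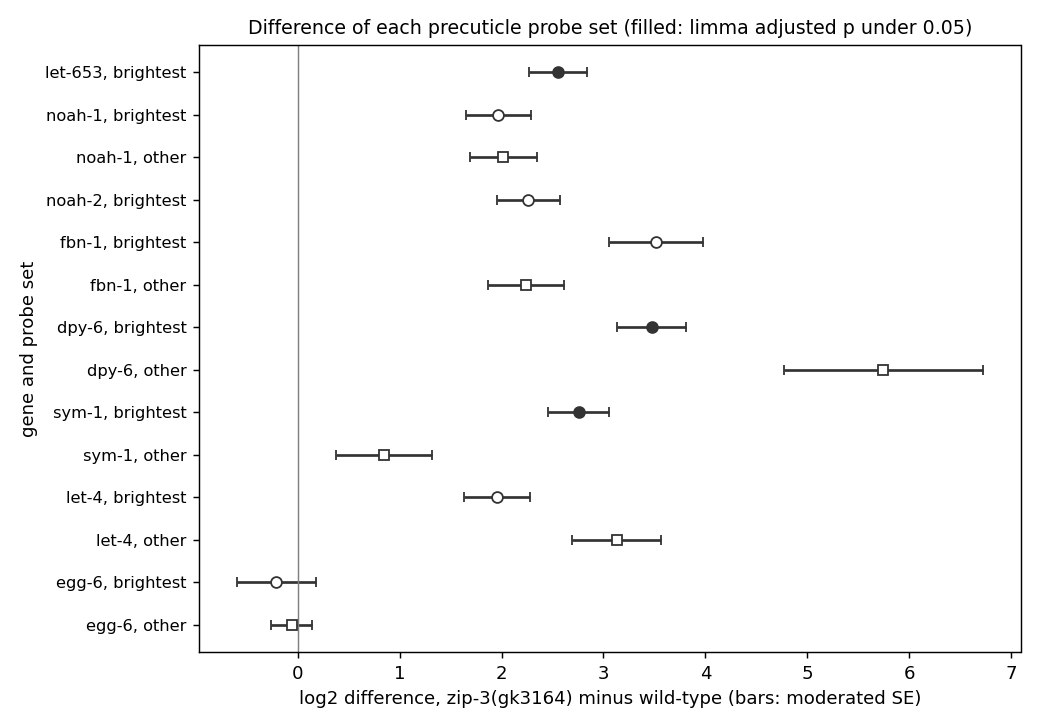
Fitted log2 difference of each precuticle probe set (horizontal axis, zip-3(gk3164) minus wild-type), with bars for the moderated SE and filled symbols where limma's adjusted p was under 0.05. The 12 probe sets of the 7 genes lie right of 0, from 0.84 for the dimmer sym-1 probe set to 5.75 for the dimmer dpy-6 probe set, and both egg-6 probe sets lie at 0 within their SE.

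Individual arrays of 1 genotype differed in a way that most of these genes shared. Relative to each gene's wild-type mean, the median over the 8 genes stood at 2.65, 2.73 and 1.93 on mutant arrays 1, 2 and 3, and at -0.48, 0.30 and 0.13 on wild-type arrays 1, 2 and 3. For all genes tested the corresponding medians lay between -0.02 and 0.05. Mutant array 3 was the lowest mutant array for all 7 genes other than egg-6 by their brightest probe sets, and wild-type array 1 was the lowest wild-type array for 6 of the 7, let-653 being the exception. By the same probe sets, mutant array 3 fell short of mutant array 2 by 0.29 on the log2 scale for noah-1 and by 0.80 to 0.94 for the other 6. The small step of noah-1 was not shared by its other probe set, which read 3401 on mutant array 2 and 1839 on mutant array 3. egg-6 was opposite by its brightest probe set, with mutant array 3 above mutant array 2 by 1.36. Its other probe set differed less between those arrays, at 405 on mutant array 2 and 471 on mutant array 3.

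The spread among wild-type arrays, which played no part in choosing the genes, was wide for most of them by their brightest probe sets. The SD of log2 signal over the 3 wild-type arrays had a median of 0.43 over the 8 genes, against 0.23 over all probe sets tested. It reached 0.81 for fbn-1, 0.67 for noah-1 and 0.51 for dpy-6, at the 96.4th, 94.0th and 88.3rd percentiles of all probe sets tested. noah-2, sym-1 and egg-6 lay between the 79.1st and 83.3rd percentiles. let-653 and let-4 were the narrow ones by these probe sets, with SDs of 0.09 and 0.10 at the 13.4th and 15.1st percentiles. The let-653 value comes from signals that all lay under the filter signal. For let-4 the other probe set was wide, at 0.88 and the 97.3rd percentile. Second probe sets gave 0.32 for fbn-1, 0.44 for noah-1, 0.30 for sym-1 and 0.24 for egg-6, at percentiles 68.6, 83.4, 65.3 and 53.5. For dpy-6 the second gave 2.09, from dim signals. Among the mutant arrays the median SD was 0.49, against 0.32 over all probe sets. noah-1 had the narrowest spread by its brightest probe set, at 0.15, but its other probe set had 0.55. These are spreads of 3 arrays each and carry no test.

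Across the 6 arrays, the 21 pairs among the 7 genes other than egg-6 had a median Pearson r of 0.98, from 0.896 to 0.999, which mostly restates the shared difference between genotypes. After each genotype's mean was subtracted, the same pairs had a median r of 0.74 and ranged from 0.21 to 0.99. The 7 pairs with egg-6 had r from -0.36 to -0.26 across the 6 arrays, and from -0.66 to -0.20 within genotypes. Each gene entered by its brightest probe set, and the probe sets of egg-6 correlated with each other at only r = 0.58. All pairs share the same 6 arrays and their scaling, so these correlations describe the arrays and were not tested.

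**Figure D3:**
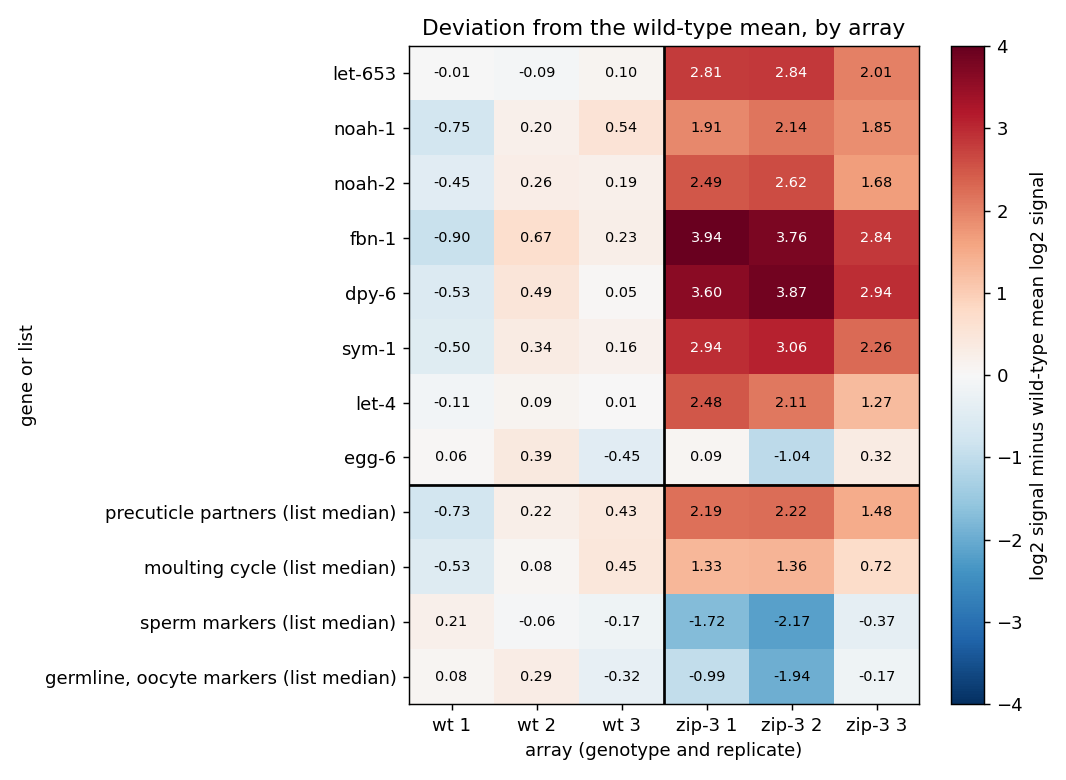
Log2 signal minus the wild-type mean (colour scale and printed values) for each precuticle gene by its brightest probe set, in columns for the 3 wild-type (wt) and 3 zip-3(gk3164) (zip-3) arrays. Lower rows give medians over all tested genes of the precuticle partner, moulting cycle, sperm, and germline and oocyte lists. Mutant array 3 is the palest mutant column for the 7 higher genes, at 1.27 for let-4 to 2.94 for dpy-6, and among the mutant columns the sperm and germline medians are nearest to 0 there, at -0.37 and -0.17.

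The 6 genes outside the set whose log2 profile over the 6 arrays was most like the mean profile of the 8 genes were K10B3.1, cblc-1, aff-1, lec-4, vab-23 and lpr-3, with Pearson r between 0.995 and 0.997. Within genotypes, their r with that mean profile lay between 0.91 and 0.97. They differed widely in size. lpr-3, a lipocalin of the same matrix, was higher by 2.81 ± 0.28 on the log2 scale, and the suffix of its probe set marks shared sequence. vab-23, a zinc finger gene of epidermal morphogenesis, differed by 1.42 ± 0.22 and aff-1, which encodes a cell fusion protein, by 1.40 ± 0.27. K10B3.1, known here by sequence name, differed by 0.74 ± 0.20, the galectin gene lec-4 by 0.60 ± 0.15 and cblc-1 by 0.43 ± 0.18. Every wild-type signal of aff-1 lay under the filter signal of 68.7, so aff-1 passed the filter through its mutant arrays. These 6 were ranked by likeness to a profile that is mostly the genotype difference on which the 8 genes were selected. Their positive differences and their r within genotypes therefore follow largely from that ranking. Of these 6, lpr-3 alone passed the test over all probe sets (limma adjusted p = 0.0364), where 0.118% were called higher. That call is given as a description and supports nothing further.

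Of 14 genes listed as partners of the precuticle or of its secretion, lpr-3, lpr-1 and mlt-11 rose in the mutant. These 3 passed the test over all probe sets, where 0.118% were called higher, and 0 of the 14 fell. All 14 differences were above 0, with a median of 1.96 on the log2 scale. This list and those below were drawn up with earlier results of these data known. Their counts and p-values are therefore given as a description and support nothing further. lpr-1, a lipocalin gene that acts on the excretory tube, read 76.1, 73.0 and 74.5 in wild-type and 420.2, 392 and 278 in the mutant. The groups did not overlap, and lpr-1 rose by 2.26 ± 0.24 (limma adjusted p = 0.0364). mlt-11, whose product resembles protease inhibitors and is needed to moult, read 274, 548 and 614 against 4162, 3304 and 2700.0, with no overlap. mlt-11 rose by 2.89 ± 0.33 (limma adjusted p = 0.0383), and the suffix of its probe set marks shared sequence. The lipocalin gene lpr-4 differed by 2.56 ± 0.38 without passing (limma adjusted p = 0.0635). At the low end, and named after their values were seen, dex-1, bli-5, tpst-1 and bli-4 had differences of 0.22 to 0.27, none of which passed. bli-4 encodes a proprotein convertase and tpst-1 a tyrosylprotein sulfotransferase, both of which process secreted proteins. Without mutant array 3, 10 of the 14 were called higher, where 5.96% of all probe sets were, and without any other single array 0 were.

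Other members of the same protein families were examined next. At an unadjusted limma p under 0.05, a level used below only to describe the lists, 10.1% of all probe sets tested were higher and 9.27% lower. Of 17 tested zona pellucida and cuticlin genes, 13 lay above 0 and 4 below, their median log2 difference was 0.40, and 0 passed the limma test in either direction, while 6 higher and 1 lower had an unadjusted p under 0.05. The cuticlin-like gene cutl-29 stood at 1.22 ± 0.40, cutl-10 at 1.06 ± 0.35, and cutl-20 and cutl-16 at 1.00 ± 0.21 and 0.99 ± 0.33. Wild-type means were 56.5 for cutl-29, 68.7 for cutl-10 and 69.2 for cutl-16, under or near the filter signal of 68.7. High mutant signals thus helped these genes past the filter. Another 19 genes of that list were too dim to be tested, so the list's counts and median may be tilted upward. Of 13 tested extracellular leucine-rich repeat genes outside the set, 9 lay above 0 and 4 below, their median was 0.29, 0 passed the limma test, and 4 higher and 0 lower had an unadjusted p under 0.05. The highest was pan-1, at 1.40 ± 0.27, followed by lron-9 at 1.23 ± 0.30, dma-1 at 0.77 ± 0.24 and lron-3 at 0.56 ± 0.22. dma-1 had a wild-type mean of 69.4, also near the filter signal, and lron-1, the neighbour of let-4, was too dim to be tested.

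**Figure D4:**
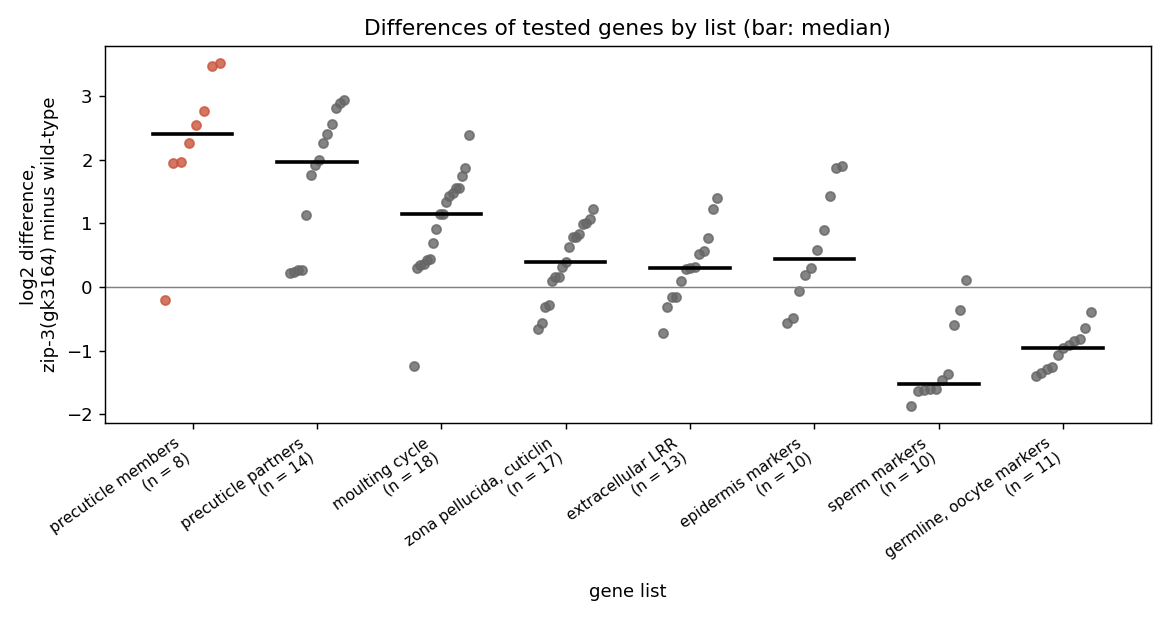
Log2 difference between genotypes (vertical axis) for each tested gene, by its brightest probe set, in the 8 precuticle genes (red) and 7 other lists (grey), with a black bar at each list's median. Medians run from 2.41 for the precuticle genes and 1.96 for their partners through 1.14 for the moulting cycle to -1.53 for the sperm markers.

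Genes that mark or drive the moulting cycle had mostly positive differences as well. Of 18 tested, 17 lay above 0 and 1 below, their median was 1.14, 0 passed the limma test, and 12 higher and 1 lower had an unadjusted p under 0.05, against 10.1% and 9.27% of all probe sets. The nuclear receptor gene nhr-25, whose product moulting depends on, differed by 1.74 ± 0.24, the transcription factor gene myrf-1 by 2.38 ± 0.45, the furrow collagen gene dpy-7 by 1.87 ± 0.32 and mlt-9 by 1.55 ± 0.37. The list's array medians were -0.53, 0.08 and 0.45 in wild-type and 1.33, 1.36 and 0.72 in the mutant, so that wild-type array 1 and mutant array 3 were the lowest of their groups here too. The negative gene was col-19, a collagen gene used as a mark of the adult skin, which read 9670, 8544 and 6163 in wild-type and 3520, 1804 and 5988 in zip-3(gk3164), and differed by -1.25 ± 0.41 on the log2 scale. It is named after its values were seen. The part of stage or moulting phase in the precuticle differences was not tested.

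Markers of the tissues of a whole larva were measured above the filter except egl-17 and ceh-22, which were too dim, and ssp-9 and msd-1, which were not analysed here. The 10 epidermis markers had a median log2 difference of 0.45, with 7 positive, while their summed signal was lower in the mutant, at 38219 to 40784, than in wild-type, at 44076 to 49814. dpy-13, a very bright collagen gene, made up most of that sum and differed by -0.56 ± 0.12. The epidermal fusion gene eff-1 differed by 1.90 ± 0.29, with signals of 73.6, 109.2 and 114.3 against 339, 489 and 289. The 8 tested markers of excretory and vulval epithelium had a median of 0.31, with 7 positive and 1 negative. Among them lin-11 stood at 1.57 ± 0.28, cog-1 at 0.46 ± 0.25, exc-4 at 0.34 ± 0.29 and exc-5 at 0.30 ± 0.22. The others, named after their values were seen, were lin-48 at 0.32 ± 0.32, egl-26 at 0.09 ± 0.20, vha-1 at 0.06 ± 0.15 and aqp-8 at -0.02 ± 0.35. The medians were 0.36 for the 6 body muscle markers, 0.16 for 7 neuron markers, -0.12 for 7 intestine markers and -0.27 for 4 pharynx markers. None of the genes in these lists passed the limma test over all probe sets, in either direction. At an unadjusted p under 0.05 the epidermis list held 5 higher and 1 lower, the excretory and vulval list 1 higher, and the muscle list 2 higher. The neuron list held 0, and the intestine and pharynx lists 1 lower each. Of the 5 higher epidermis markers, dpy-7 and rol-6 are in the moulting cycle list too, so those lists are not separate. The shares over all probe sets were 10.1% higher and 9.27% lower.

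Sperm and germline markers had differences of the opposite sign, of very different size on the 3 mutant arrays. The summed signal of the 10 sperm markers was 23173 to 30972 in wild-type and 7620.4, 5208 and 18983 on mutant arrays 1, 2 and 3, with 9 of 10 negative and a median log2 difference of -1.53. The 11 germline and oocyte markers summed to 19944 to 27559 in wild-type and 13284, 8604 and 22871 in the mutant, all 11 negative, with a median of -0.95. No gene of either list passed the limma test, and 7 sperm and 4 germline markers had an unadjusted p under 0.05, all lower, against 9.27% of all probe sets. On mutant array 3 the sperm sum lay below the wild-type range and the germline sum within it. The part of germline content in the precuticle differences was not tested.

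The brighter zip-3 probe set was lower on each array labelled as mutant than on any wild-type array, at 1204, 1113 and 939.6 in wild-type and 385, 459 and 234 in zip-3(gk3164), a log2 difference of -1.64 ± 0.28 that did not pass over all probe sets (limma adjusted p = 0.0717). Genotypes overlapped for the other probe set of the gene, 179163_at, which gave signals of 116.8, 84.5 and 71.9 in wild-type and 64.4, 74.9 and 50.8 in the mutant, where array 2 lay above wild-type array 3. The log2 difference of 179163_at was -0.51 ± 0.30, which did not pass either (limma adjusted p = 0.393). The position of both probe sets relative to the altered part of the gene is not given in the sources used here. Median signals of the 6 arrays lay between 123.9 and 139.1. Mutant array 3 correlated with the wild-type arrays at 0.94 to 0.96 and with the other mutant arrays at 0.93 and 0.89, so precuticle values are given above by array. With 3 arrays per genotype, precision is limited throughout.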

How the data were processed

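Whole-larva RNA of 2 genotypes was measured on 6 arrays made by Affymetrix, with 3 for each genotype. Total RNA was amplified by in vitro transcription into biotin-labelled cRNA, per the labels. The deposited values are linear probe set intensity values that the authors made in Affymetrix Expression Console by the MAS5 algorithm, as the submitters' processing notes give it, with versions not given in the sources used here. The mean without the top and bottom 2% of values was 500.2 on each array, so each had been scaled. MAS5 subtracts mismatch signal, which makes dim probe sets noisy.

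Here, signals were taken to log2 with no offset. Probe sets at or above the 40th percentile of mean log2 signal, 13529 of 22548, were tested with limma 3.58.1 in R 4.3.3 (genotype, empirical Bayes with an intensity trend, two-sided, Benjamini-Hochberg over all tested). The fit was checked on simulated arrays. Probe sets took gene names from the platform annotation, 20766 with 1 gene, 887 with several and 895 with none; the WBcel235 gene table changed 0 symbols. Each gene took the values of its brightest probe set by mean log2 signal. Suffixes such as _s_at mark shared sequence. Among genes named outside the set, lpr-3, mlt-11, lec-4, pan-1, lron-9, lron-3, cutl-10, dpy-7, myrf-1, mlt-9 and dpy-13 have such probe sets. So do dex-1, tpst-1, bli-4, lin-48 and egl-26.

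The genes, lists and naming rule were chosen with earlier results of these data known. The rule named zip-3, all 8 genes, up to 4 genes of each list by moderated statistic, and the 6 genes most like the mean profile. Alternatives were quantile normalization, median centring, an offset of 16, no filter, the 60th percentile, no trend, leaving out each array, a block on replicate number, and averaging a gene's probe sets. No sequences are shown, since no table used here holds them.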

Additional observations from a re-analysis of the deposited data

How the results depend on the processing

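The median log2 difference of the 8 precuticle genes, 2.41, ranged from 2.25 to 2.69 over all alternatives, including each array left out and the average of a gene's probe sets. Under the 60th percentile filter let-653 was not tested, so the median there, 2.26, is over the remaining genes. The wild-type spread of the genes stayed between 0.42 and 0.45 under both scalings and the offset. The calls did not hold as well. An offset of 16, which damps dim wild-type signals, gave 40 called probe sets against 18, and 7 precuticle probe sets against 3. Leaving out single arrays gave 0 to 2167 called probe sets and 0 to 11 precuticle probe sets, with calls only without mutant array 3, and the cause was not tested. With replicate number as a block, 0 probe sets and 0 precuticle probe sets were called. The labels do not say whether same-numbered arrays were raised together. Deviations of same-numbered arrays from their genotype means correlated at 0.02, 0.05 and -0.16. With 3 arrays per genotype, these values cannot tell whether the replicate numbers pair the samples. Precuticle calls numbered 2 to 3 under quantile normalization, median centring, no filter, the 60th percentile filter and no intensity trend. dpy-6 and sym-1 passed in 7 of 13 alternatives and let-653 in 5 of 12. With single arrays left out, the brighter egg-6 probe set ranged from -0.48 to 0.21 and changed sign without mutant array 2, and the dimmer one ranged from -0.18 to 0.063 and changed sign without wild-type array 1. No other precuticle probe set changed sign. Dim wild-type signals limit the size of the let-653, dpy-6, fbn-1 and let-4 differences.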
